A study of Mus musculus with 12 samples.

Results

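To examine whether hepatic genes for histone-modifying enzymes differ between male offspring of exposed and unexposed fathers, the genes that add or remove acetyl and methyl groups on histones were read out of a liver RNA sequencing (RNA-seq) series. They were chosen by gene symbol, with earlier results of these data known. The choice took the Kat, Kmt, Setd, Nsd, Prmt, Hdac, Sirt and Kdm genes. It also took the core genes Ezh1, Ezh2, Eed and Suz12 of the Polycomb repressive complex PRC2 and the coactivators Ep300 and Crebbp. This gave 76 of the 21683 genes in the deposited table. Of these, 40 were counted as writers, which add a mark or form the core of PRC2, and 36 as erasers, which take it off. Enzymes whose genes carry other names, such as Dot1l and Ehmt2, are outside this choice. The 12 livers came from F1 male wild-type mice. In the paternal control group, 6 animals, the sires were not exposed, and in the paternal DCHP group, 6 animals, they had been gavaged with the plasticizer dicyclohexyl phthalate (DCHP) over 4 weeks, beginning at an age of 8 weeks. The control sires received the corn oil vehicle, and sires and dams were C57BL/6J mice. All offspring of both groups ate a high-fat diet over 9 weeks, starting at an age of 3 weeks, so no liver on a normal diet enters the comparison. The labels do not say which animals shared a sire or a litter, and p-values therefore measure the spread between these animals, not between litters.

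Histones are marked on their tails by acetyl and methyl groups. Acetyltransferases take the acetyl group from acetyl-CoA and generally open chromatin for transcription, and deacetylases reverse this, either with zinc (the HDAC proteins) or with NAD (the sirtuins). Lysine methyltransferases of the KMT2 family mark promoters and enhancers of active genes, SETD2 and the NSD proteins mark transcribed gene bodies, and PRC2 places a repressive mark. Lysine demethylases are either flavin-dependent (KDM1) or use 2-oxoglutarate, iron and oxygen (the JmjC proteins). In the liver, such enzymes act with nuclear receptors and the clock in the control of fasting, lipid and glucose genes, and the deacetylase HDAC3 is known there as the partner of the NCoR corepressor. Not every enzyme in these families acts on histones. SETD3 is known as an actin methyltransferase, SIRT3, SIRT4 and SIRT5 act mainly in mitochondria, HDAC11 removes long fatty acyl groups from proteins, and SETD7 methylates many proteins other than histones.

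Libraries held from 23794728 to 30445338 estimated counts, and levels are given as CPM, counts relative to the size of the library, after scaling with the TMM method. The labelled tissue was checked with hepatocyte markers, whose summed level lay between 72000 and 88100 CPM in controls and between 66100 and 90800 CPM in DCHP livers. Of the 8 hepatocyte markers 5 were positive and 1 was called. Calls of markers are at a false discovery rate under 0.1, which 3.84% of all tested genes passed. Markers of Kupffer cells, the macrophages of the liver, summed to 183 to 292 CPM in controls and 216 to 665 CPM in DCHP livers, with all 10 markers on the positive side, none at 0 and none called, and 3 DCHP livers above the control range. Neutrophil markers, with Ly6g at 0 in every library, summed to 2.54 to 5.99 CPM in controls and 5.25 to 9.95 CPM in DCHP livers, with 3 above the control range, and of the 2 markers tested both were positive and 1 was called. Markers of the sinusoidal endothelium summed to 140 to 168 CPM and 142 to 177 CPM, with 4 DCHP livers above the control range and none of 6 markers called. Stellate cell markers summed to 162 to 228 CPM and 154 to 242 CPM, with 2 DCHP livers above. Cholangiocyte markers summed to 23.2 to 56.3 CPM and 28.5 to 40.3 CPM, and lymphocyte markers to 1.69 to 6.5 CPM and 1.49 to 3.74 CPM. In both, 0 DCHP livers lay above the control range. DCHP 5 was highest in Kupffer cell and erythroid markers, and had the highest share of mitochondrial counts (8.03%, with 5.22% to 6.98% elsewhere). The part of these other cells in the results for the enzymes was not tested. Longer genes also tended to be higher in DCHP livers, to an unequal extent between livers. Each gene's deviation from its mean level was correlated with exonic length in each library (Spearman). The values were 0.012, -0.074, -0.265, 0.004, -0.285 and -0.268 in control livers 1 to 6. In DCHP livers 1 to 6 they were 0.078, -0.067, 0.299, -0.046, 0.393 and -0.016, highest in DCHP 5 and DCHP 3. Among all tested genes, the median log2 fold change ran from -0.12 for genes with less than 2 kb of exon to 0.20 for genes with 15 kb or more, and the latter were positive in 85%. Changes are therefore also given with each library's trend on exonic length and GC content removed.

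Nearly all of the enzymes were expressed in liver. Of the 76 genes, 74 passed the filter on low counts, 39 writers and 35 erasers. Prmt8, an arginine methyltransferase gene known from the brain, had 0 counts in all 12 libraries, which with a limit of 3 counts allows up to 0.126 CPM in the smallest library and 0.0985 CPM in the largest. Kdm4d had 2 counts summed over the controls and 1 over the DCHP livers. Hdac9 (128 and 114 summed counts), Prmt2 (125 and 102) and Setd4 (154 and 126) were tested but lay close to this limit of detection, and their standard errors were the largest.

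To compare genes, levels were divided by exonic length. This length counts all annotated exons of a gene, not the transcripts made in liver, so the order depends on the annotation. Per kilobase of exon, the writer gene with the highest level was Kat2b, which encodes the acetyltransferase PCAF, at 18.5 ± 1.85 CPM per kb (mean ± SD over the 12 livers). Setd3 followed at 13.1 ± 0.396 CPM per kb and Setd6 at 6.44 ± 1.06 CPM per kb, a gene whose product methylates the NF-kB subunit RelA. The highest erasers per kilobase were Hdac11 (13.7 ± 3.04 CPM per kb), Sirt3 (12.9 ± 2.56) and the X-linked demethylase gene Kdm5c (9.18 ± 1.66). With both groups pooled, the spreads of Setd3, Hdac11 and Sirt3 overlapped, and that of Hdac11 reached that of Kat2b. These pooled spreads include any difference between the groups. In controls the means were 19.7 ± 1.11 for Kat2b, 16.3 ± 1.54 for Hdac11, 14.7 ± 1.52 for Sirt3 and 13.3 ± 0.301 for Setd3. In DCHP livers they were 17.3 ± 1.69, 11.2 ± 1.61, 11 ± 1.94 and 12.9 ± 0.378 CPM per kb (SD, n = 6 each). The PRC2 subunit gene Ezh2, which is linked to dividing cells, stood at 0.433 CPM per kb. The demethylase gene Kdm5d of the Y chromosome, at 0.354 CPM per kb, lay far below its X-linked relative Kdm5c.

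**Figure D1:**
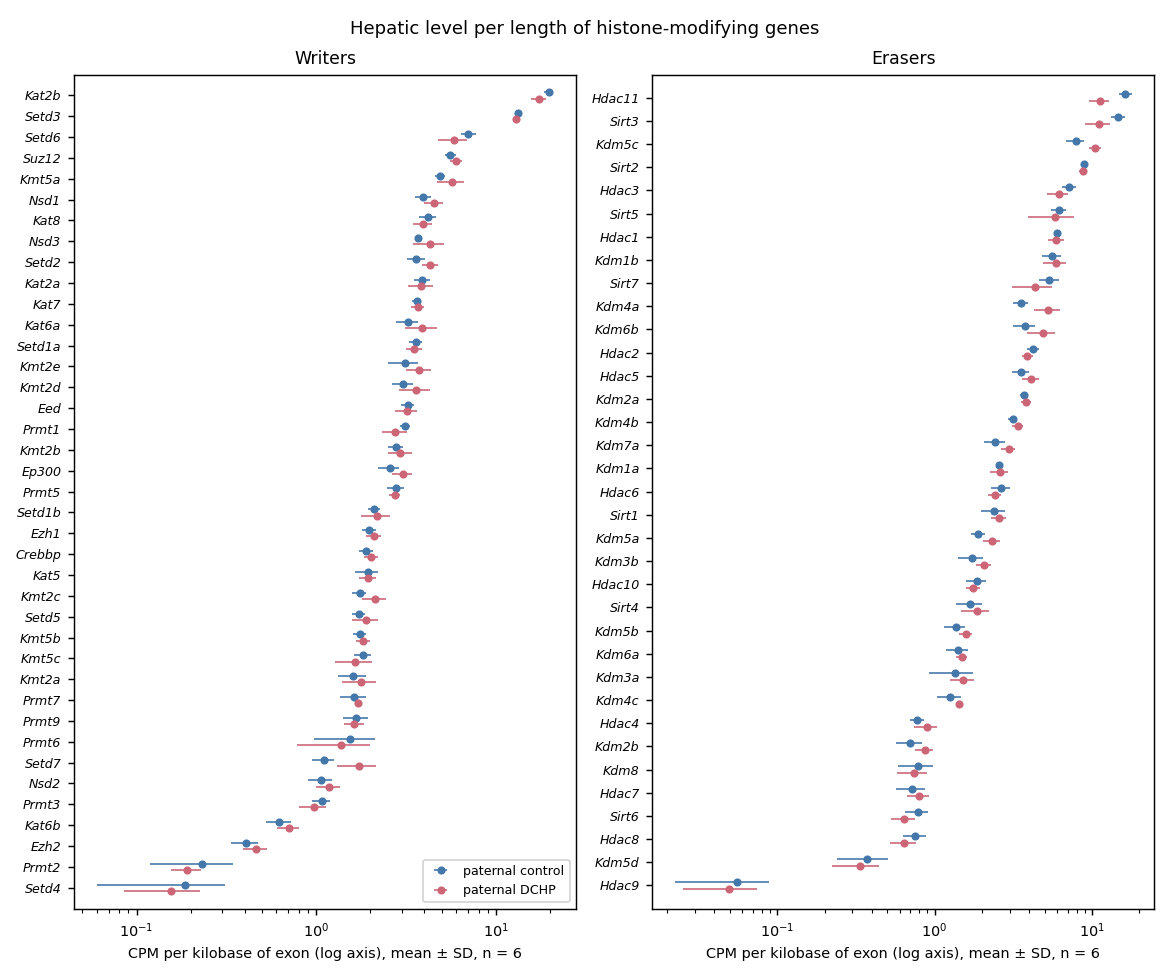
Level of each histone-modifying gene in liver in CPM per kilobase of exon (log axis), as mean ± SD of 6 paternal control (blue) and 6 paternal DCHP (red) livers, writers at left and erasers at right. Kat2b leads the writers and Hdac11 the erasers, and both have a lower DCHP than control mean. Prmt8 and Kdm4d are left off.

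The comparison of the 2 groups asked which of these genes differ in liver after paternal DCHP exposure. At the thresholds that the study used, a false discovery rate (FDR) under 0.1 and a fold change above 1.5, Setd7 was the 1 gene called, on the higher side, where 1.28% of all tested genes were called, 0.963% higher and 0.313% lower. At an FDR under 0.1 with no limit on the fold change, 5 of the 74 tested genes (6.76%) were called, against 3.84% of all 12459 tested genes, 2.29% higher and 1.56% lower. Setd7, Kdm4a and Kdm5c rose and Hdac11 and Sirt3 fell. Among writers 1 of 39 was called, and among erasers 4 of 35 (11.4%). The groups did not overlap for 2 of the 74 genes, Setd7 on the higher and Hdac11 on the lower side, and for 2.14% of all tested genes, 0.907% higher and 1.24% lower. DESeq2 called the same 5 and Kdm5a, and limma-voom the same 5. At the study's thresholds DESeq2 called 326 genes of the whole table and limma-voom 117, where edgeR called 159. FDR values are Benjamini-Hochberg adjusted p-values of edgeR's quasi-likelihood test over all tested genes. Only the thresholds are the study's, and the calls and shares are those of this fit, not of the study's own list.

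Without regard to adjustment, 15 of the 74 genes (20.3%) had p under 0.05, close to the 18.9% of all tested genes. Of these, 12 were higher and 3 lower with paternal DCHP exposure, and of all tested genes 10.6% were higher and 8.34% lower at that p. Among writers 5 of 39 (12.8%) were below that p and among erasers 10 of 35 (28.6%). The sign of the change was positive for 44 of 74 (59.5%), against 51.5% of all tested genes. The median log2 fold change was 0.07 for writers and 0.07 for erasers, against 0.01 for all tested genes. For erasers it was 0.03 without DCHP 5 and 0.04 without control 2 or control 3. With the length and GC trend removed the medians were -0.01 for writers and 0.01 for erasers, and 37 of the 74 were positive. The median exonic length was 6678 bases for writers and 5823 for erasers, against 4478 for all tested genes. Without the actin methyltransferase gene Setd3, the median of the writers was 0.08, and without the 3 mitochondrial sirtuin genes that of the erasers was 0.08.

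Setd7 encodes a lysine methyltransferase known both for the activating methyl mark on histone H3 and for transcription factors as substrates. It spans bases 51515319 to 51560879 of chromosome 3 (mm10, minus strand). In control livers 1 to 6 its level was 13, 13.2, 10.8, 9.30, 11.5 and 13.4 CPM. In DCHP livers 1 to 6 it was 14, 24.8, 16.6, 13.9, 23.4 and 19.4 CPM. Every DCHP liver lay above every control, although DCHP 1 and DCHP 4 were only just above the highest of them. The mean rose from 11.9 ± 1.63 to 18.7 ± 4.64 CPM (SD, n = 6 each), or by 57.4%, a log2 fold change of 0.65 ± 0.15 (SE, edgeR FDR = 0.0629). With the length and GC trend removed it was 0.54 with an FDR of 0.0943, below a fold change of 1.5. Without any 1 of control 3, control 4, control 5, control 6 or DCHP 5 the FDR was above 0.1, at 0.137, 0.117, 0.131, 0.109 and 0.111 by edgeR. Without DCHP 2 the log2 fold change was 0.56 (edgeR FDR 0.0896), below a fold change of 1.5, so that Setd7 was then not called at the study's thresholds. A gene on the other strand, 5031434O11Rik, overlaps Setd7 and has no row under that symbol in the deposited counts. As no source used here gives the strand setting, its reads cannot be told apart from those of Setd7.

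Kdm4a encodes a JmjC demethylase of methylated lysines 9 and 36 of histone H3. It spans bases 118136957 to 118180043 of chromosome 4 (minus strand). Control livers 1 to 6 had 19.9, 23.8, 17.8, 20.3, 22.2 and 18.6 CPM. DCHP livers 1 to 6 had 22.1, 25.7, 29.8, 37.3, 34.5 and 33.1 CPM. DCHP 1 fell within the control range and the other 5 lay above it. The mean rose from 20.4 ± 2.24 to 30.4 ± 5.71 CPM (SD, n = 6 each), or by 48.9%, and the log2 fold change was 0.57 ± 0.12 (SE, edgeR FDR = 0.0527). With 5782 bases of exon Kdm4a is of middling length, and its change with the length and GC trend removed was 0.53 (FDR 0.0647). The FDR was 0.112 without control 3, 0.102 without control 4 and 0.107 without control 6 by edgeR. Its fold change of 1.49 lay just under the study's limit. Kdm4a passed the study's thresholds without control 2, control 5, DCHP 1, DCHP 2 or both DCHP 1 and DCHP 4. Without control 5 or DCHP 2 it was the only enzyme gene that did, and Setd7 did not.

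Kdm5c encodes a demethylase of lysine 4 of histone H3. It spans bases 152233020 to 152274535 of the X chromosome (plus strand). Control livers 1 to 6 had 58.7, 67.3, 50.7, 45.5, 59.5 and 55.2 CPM. DCHP livers 1 to 6 had 75.4, 62.1, 74.0, 76.5, 84.0 and 74.3 CPM. DCHP 2 was the single DCHP liver below the highest control. The mean rose from 56.1 ± 7.56 to 74.4 ± 7.03 CPM (SD, n = 6 each), or by 32.5%, with a log2 fold change of 0.41 ± 0.10 (SE, edgeR FDR = 0.0629) and of 0.34 with the length and GC trend removed (FDR 0.0941). Without control 3, control 4, control 5 or control 6 the edgeR FDR was 0.14, 0.108, 0.121 and 0.126, and without DCHP 4 or DCHP 5 it was 0.101 and 0.105. Without both DCHP 1 and DCHP 4 it was 0.118. Its Y-linked relative Kdm5d was at 5.66 ± 2 CPM in controls and 5.08 ± 1.68 CPM in DCHP livers (SD, n = 6 each, edgeR FDR = 0.774).

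Hdac11 encodes the only class IV deacetylase, which acts strongly on long fatty acyl groups. It spans bases 91156665 to 91174692 of chromosome 6 (plus strand). Control livers 1 to 6 had 66.2, 54.3, 69.2, 67.6, 59.0 and 59.0 CPM. DCHP livers 1 to 6 had 49.5, 48.2, 47.9, 38.8, 35 and 39.0 CPM. The groups did not overlap, with all 6 DCHP livers below the lowest control. The mean fell from 62.6 ± 5.93 to 43.1 ± 6.2 CPM (SD, n = 6 each), a change of -31.2% and a log2 fold change of -0.54 ± 0.10 (SE, edgeR FDR = 0.0434), the smallest FDR among the 74 genes. Its exonic length of 3849 bases is below the median of tested genes, and the change with the length and GC trend removed was -0.52 (FDR 0.0403). The 1 library that ended the call was control 3, without which the edgeR FDR was 0.1. The genes Gm14573 and Gm44002 overlap Hdac11 on the other strand and have no rows under these symbols in the deposited counts. Reads from them therefore cannot be told apart from those of Hdac11.

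Sirt3 encodes the main deacetylase of mitochondrial enzymes, among them enzymes of fatty acid oxidation, and had the highest FDR of the 5 calls. It spans bases 140863666 to 140882309 of chromosome 7 (minus strand). Control livers 1 to 6 had 73.2, 85.3, 90.6, 93.9, 99.6 and 85.6 CPM. DCHP livers 1 to 6 had 77.5, 63.2, 68.3, 63.5, 45.5 and 75.9 CPM. DCHP 1 and DCHP 6 lay within the control range and 4 DCHP livers lay below it, DCHP 5 furthest. The mean fell from 88 ± 9.05 to 65.7 ± 11.6 CPM (SD, n = 6 each), a change of -25.4%, with a log2 fold change of -0.42 ± 0.12 (SE, edgeR FDR = 0.0891) and of -0.46 with the length and GC trend removed (FDR 0.0987). By edgeR the FDR passed 0.1 without control 2, control 3, control 4, control 5 or control 6 (0.11, 0.177, 0.152, 0.172 and 0.152) and without DCHP 2, DCHP 3, DCHP 4 or DCHP 5 (0.12, 0.112, 0.129 and 0.105). It was also above 0.1 with no filter on low counts (0.105), with 1 surrogate variable (0.12) and without both DCHP 1 and DCHP 4 (0.104). The neighbours Psmd13 and Ric8a overlap Sirt3 on the other strand, and their log2 fold changes were -0.02 (edgeR FDR 0.918) and -0.05 (0.858).

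**Figure D2:**
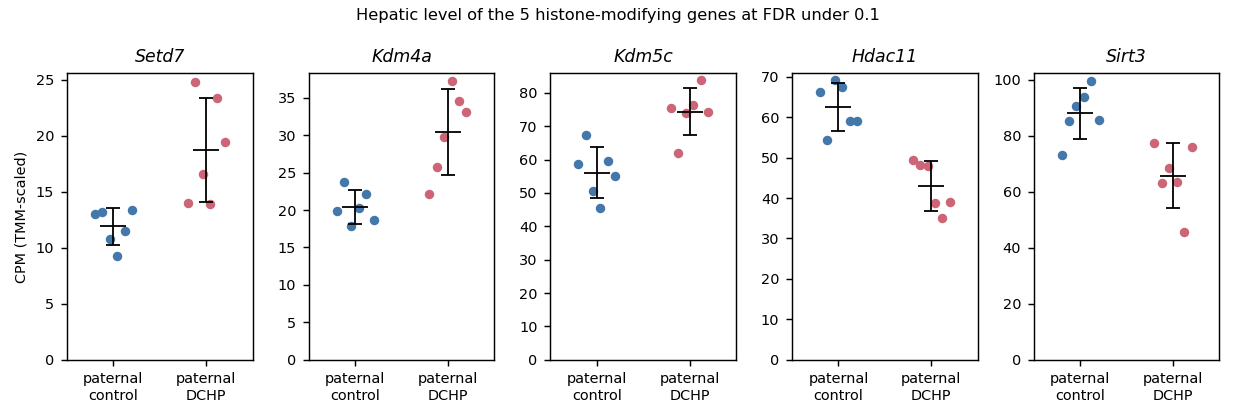
Level in CPM of the 5 genes called at an FDR under 0.1, with each point 1 liver, 6 paternal control (blue) and 6 paternal DCHP (red), and bars for mean ± SD. The groups separate in full for Setd7 and Hdac11, DCHP 1 overlaps the controls for Kdm4a, DCHP 2 for Kdm5c, and DCHP 1 and DCHP 6 for Sirt3.

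Without DCHP 5, which stood apart in cell markers and mitochondrial counts, Hdac11 had a log2 fold change of -0.49 (edgeR FDR 0.057) and Kdm4a of 0.53 (0.0823), and both were still called. Setd7 was at 0.58, Kdm5c at 0.37 and Sirt3 at -0.34 without it, and the 3 were not called. Without control 3 none of the 5 was called, at log2 fold changes of 0.63 for Setd7, 0.54 for Kdm4a, 0.38 for Kdm5c, -0.51 for Hdac11 and -0.41 for Sirt3. In bulk liver, a change in the share of a cell type cannot be told apart from a change of RNA in each cell.

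The bases just before the start of 4 of the 5 genes are shown, so that promoters of genes that rose (Setd7 and Kdm4a) can be set beside those of genes that fell (Hdac11 and Sirt3). Kdm5c, which also rose, is not shown. Each is 100 bases, 5′ to 3′ along the gene and directly upstream of its outermost annotated start, from RefSeq on GRCm38.p6. Capitals mark a match to 1 of 8 motifs searched on both strands, and Setd7 has none.
Setd7: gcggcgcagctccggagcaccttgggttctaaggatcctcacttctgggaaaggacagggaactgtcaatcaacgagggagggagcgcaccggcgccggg
Kdm4a: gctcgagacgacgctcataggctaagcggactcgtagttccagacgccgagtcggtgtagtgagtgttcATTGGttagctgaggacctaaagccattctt
Hdac11: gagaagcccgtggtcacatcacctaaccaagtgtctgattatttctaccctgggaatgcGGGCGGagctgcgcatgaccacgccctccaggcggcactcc
Sirt3: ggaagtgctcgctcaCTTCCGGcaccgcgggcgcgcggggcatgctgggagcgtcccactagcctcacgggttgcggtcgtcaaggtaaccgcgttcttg

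These windows are chr3:51560880-51560979 (minus strand), chr4:118180044-118180143 (minus strand), chr6:91156565-91156664 (plus strand) and chr7:140882310-140882409 (minus strand), in that order. They hold 8, 8, 6 and 13 CpG dinucleotides, with a median of 8 over the 45 enzyme genes that had such a window and of 8 over 7906 tested genes. Kdm4a carries the CCAAT box (CCAAT) on the reverse strand, a motif in 14 of the 45 windows (31.1%) and in 24.8% of tested genes' windows. Hdac11 carries a GC box (GGGCGG), found in 22 of 45 (48.9%) and in 46% of tested genes. Sirt3 carries the ETS motif (CCGGAAG) on the reverse strand, found in 3 of 45 (6.67%) and in 8.9% of tested genes. The other motifs searched were those of NRF1 (0 of 45 and 1.29% of tested genes), YY1 (AAGATGGCG, 0 of 45 and 0.506%), CRE (TGACGTCA, 2.22% and 2.11%), the E-box (CACGTG, 6.67% and 4.79%) and the TATA box (TATAAA, 6.67% and 2.58%). A match is a description of the letters and not of binding.

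The writers fell into 4 families, and where edgeR called none in a family, DESeq2 and limma-voom called none either. The acetyltransferases had no call among 9 genes, 2 with an unadjusted p under 0.05 (Kat2b and Ep300), and a median log2 fold change of 0.02, which stayed at 0.02 with the length and GC trend removed. Kat2b, the writer with the highest level, was at 104, 91.5, 94.3, 101, 91.5 and 93.6 CPM in control livers 1 to 6. It was at 93.3, 87.2, 86.6, 73.7, 74.9 and 90.7 CPM in DCHP livers 1 to 6, so that 5 of 6 lay below the lowest control. With a log2 fold change of -0.19 ± 0.07 it did not pass (SE, edgeR FDR = 0.197). Ep300, which encodes the coactivator p300, was at 36.6 ± 4.86 CPM in controls and 43.4 ± 5.53 CPM in DCHP livers (SD, n = 6 each), or 0.25 ± 0.10 on the log2 scale (edgeR FDR = 0.21, not called) and 0.10 without the length and GC trend. Kat6a, of the MYST family, had a log2 fold change of 0.27 ± 0.12 (edgeR FDR 0.264). Crebbp, the close relative of Ep300, was at 0.09 ± 0.08 (0.571), and the remaining Kat genes lay between -0.08 for Kat8 and 0.18 for Kat6b.

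Of the 19 lysine methyltransferase genes, 14 had a positive log2 fold change and Setd7 was the only 1 called. The median was 0.15, and 0.01 once the length and GC trend was removed, with 10 of 19 positive. Without DCHP 5 the median was 0.08 and 13 were positive. This family holds the longest genes of the set, at a median of 10813 exonic bases. Kmt2c, which encodes the enhancer methyltransferase MLL3, was at 35.3 ± 3.27 CPM in controls and 43.1 ± 6.63 CPM in DCHP livers (SD, n = 6 each). Its log2 fold change was 0.29 ± 0.10 (SE, edgeR FDR = 0.148, not called) and was 0.11 without the trend. Setd2, whose product places the trimethyl mark of transcribed gene bodies, was at 38.8 ± 4.58 and 46.4 ± 4.56 CPM (SD, n = 6 each), a log2 fold change of 0.26 ± 0.09 (edgeR FDR = 0.148) and 0.16 without the trend. The 7 KMT2 and SETD1 genes had a median of 0.15, with 6 positive, and of 0.01 without the trend. Nsd1, Nsd2, Nsd3 and Setd2 were all positive with a median of 0.21, which was 0.05 without the trend.

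On the negative side, Setd6 was at 13.4 ± 1.27 CPM in controls and 11.1 ± 2.07 CPM in DCHP livers (SD, n = 6 each), or -0.26 ± 0.12 on the log2 scale (edgeR FDR = 0.265, not called). Setd3 stood at 80.4 ± 1.82 CPM in controls and 77.8 ± 2.28 CPM in DCHP livers (SD, n = 6 each), a log2 fold change of -0.05 ± 0.05 (edgeR FDR = 0.645). The 4 genes of the PRC2 core had no call and 0 with an unadjusted p under 0.05, with log2 fold changes of 0.18 ± 0.17 for Ezh2, 0.10 ± 0.07 for Suz12, 0.09 ± 0.09 for Ezh1 and -0.03 ± 0.10 for Eed. Arginine methyltransferases were the 1 writer family on the negative side, with 6 of 7 tested genes negative, a median of -0.15, no call and 0 with an unadjusted p under 0.05, and without DCHP 5 the median was -0.06. Prmt1, the main enzyme of asymmetric arginine methylation, was at 10.7 ± 0.672 and 9.42 ± 1.51 CPM (SD, n = 6 each), a log2 fold change of -0.18 ± 0.11 (edgeR FDR = 0.398). Prmt3, which acts on a ribosomal protein, was at -0.15 ± 0.13 (0.542), and Prmt7 was the single positive gene at 0.07 ± 0.11.

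The eraser families had medians of opposite sign. Of 17 tested lysine demethylases 15 (88.2%) were positive, 7 (41.2%) had an unadjusted p under 0.05, all of them higher, and 2 (11.8%) were called. Of 18 deacetylase and sirtuin genes 13 were negative and 2 were called, both lower. At an unadjusted p under 0.05, 1 of the 18 was higher (Hdac5) and 2 were lower, together 16.7%. Over all tested genes 18.9% had such a p, 10.6% on the higher side and 8.34% on the lower, and 2.29% were called higher and 1.56% lower. The median log2 fold change was 0.20 for demethylases and 0.11 with the length and GC trend removed, when 13 of 17 remained on the positive side. For deacetylases and sirtuins together it was -0.11 and -0.13, with 5 of 18 positive on both scales. Without DCHP 5 the demethylases had 14 of 17 positive genes, 6 of them with p under 0.05, and a median of 0.18, and without control 3 they had 15, 5 and 0.17. Deacetylases and sirtuins had 12 of 18 negative genes without DCHP 5 and 13 without control 3, both at a median of -0.10. No difference between the families was tested, since genes measured in the same livers are not replicates.

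**Figure D3:**
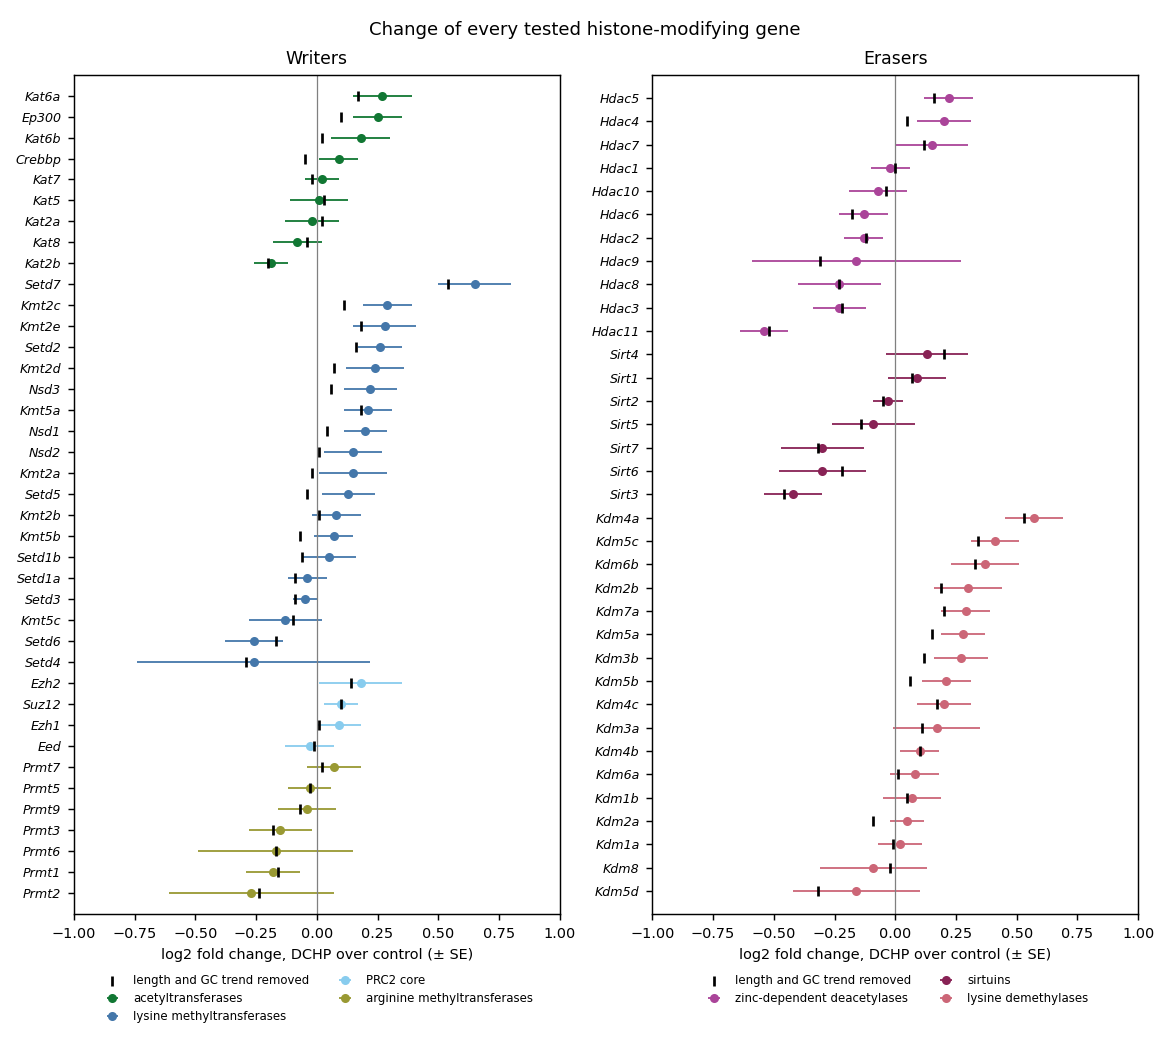
Log2 fold change (paternal DCHP over control, ± SE) of the 39 writers and 35 erasers tested, coloured by family, with a black tick for the value with the length and GC trend removed. Kdm genes lie mostly to the right of 0 and Hdac and Sirt genes mostly to the left, and the ticks of the Kmt and Nsd genes sit closer to 0 than their points.

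Among demethylases that did not pass, Kdm5a, a relative of Kdm5c, was at 28.2, 28.5, 26.8, 29.6, 22.0 and 26.6 CPM in control livers 1 to 6. In DCHP livers 1 to 6 it was at 36.3, 34.0, 29.8, 28, 37.8 and 30.4 CPM, with DCHP 4 alone inside the control range. Its log2 fold change was 0.28 ± 0.09 (SE, edgeR FDR = 0.134), 0.15 without the length and GC trend, and DESeq2 called it at an FDR of 0.0812. Kdm6b, which encodes the demethylase JMJD3 of the Polycomb mark and is known to respond to inflammatory signals, was at 26.1 ± 4.05 and 33.7 ± 6.92 CPM (SD, n = 6 each). The log2 fold change was 0.37 ± 0.14 (edgeR FDR = 0.188). Kdm7a, a demethylase of repressive marks, was at 24.3 ± 3.77 and 29.6 ± 3.12 CPM (SD, n = 6 each), or 0.29 ± 0.10 on the log2 scale (edgeR FDR = 0.164). Kdm3b and Kdm2b, named here because they completed the 7 with p under 0.05, had log2 fold changes of 0.27 ± 0.11 (edgeR FDR 0.215, and 0.0658 without control 2) and 0.30 ± 0.14 (0.257).

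The 4 genes of the KDM5 family had a median log2 fold change of 0.25, or 0.11 without the trend, with Kdm5d the negative one. The 3 tested KDM4 genes were all positive, with Kdm4c at 0.20 ± 0.11 and Kdm4b at 0.10 ± 0.08 beside Kdm4a, and their median was 0.17 without the trend. The flavin-dependent genes Kdm1a (0.02 ± 0.09) and Kdm1b (0.07 ± 0.12) and the Polycomb-mark demethylase gene Kdm6a (0.08 ± 0.10) lay near 0.

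To see how the demethylases varied from liver to liver, a score was taken for each family as the mean over its tested genes of centred log2(CPM + 0.5). The demethylase score was -0.02, -0.04, -0.08, -0.10, -0.18 and -0.13 in control livers 1 to 6. It was 0.16, 0.01, 0.10, 0.06, 0.18 and 0.05 in DCHP livers 1 to 6, all above the highest control. With the length and GC trend removed, the scores lay between -0.12 and 0 in controls and between 0.02 and 0.15 in DCHP livers, again without overlap. The score rests on 17 genes of the same livers, and it gives no test of its own. All 1243 tested genes with 10 kb of exon or more, scored alike, lay between -0.13 and 0.01 in controls and between -0.02 and 0.25 in DCHP livers, with 4 of 6 DCHP livers above the controls.

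The sirtuin score lay between -0.06 and 0.22 in controls and between -0.19 and 0.07 in DCHP livers, with 4 DCHP livers below the control range. For zinc-dependent deacetylases it lay between -0.08 and 0.20 in controls and between -0.10 and 0.09 in DCHP livers, with 2 below. The lysine methyltransferase score was above the control range in 4 DCHP livers, and in 2 with the trend removed. Taken as whole classes, the writers' score ran from -0.09 to 0.03 in controls and from -0.04 to 0.10 in DCHP livers, and that of the erasers from -0.08 to 0.03 and from -0.05 to 0.05.

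**Figure D4:**
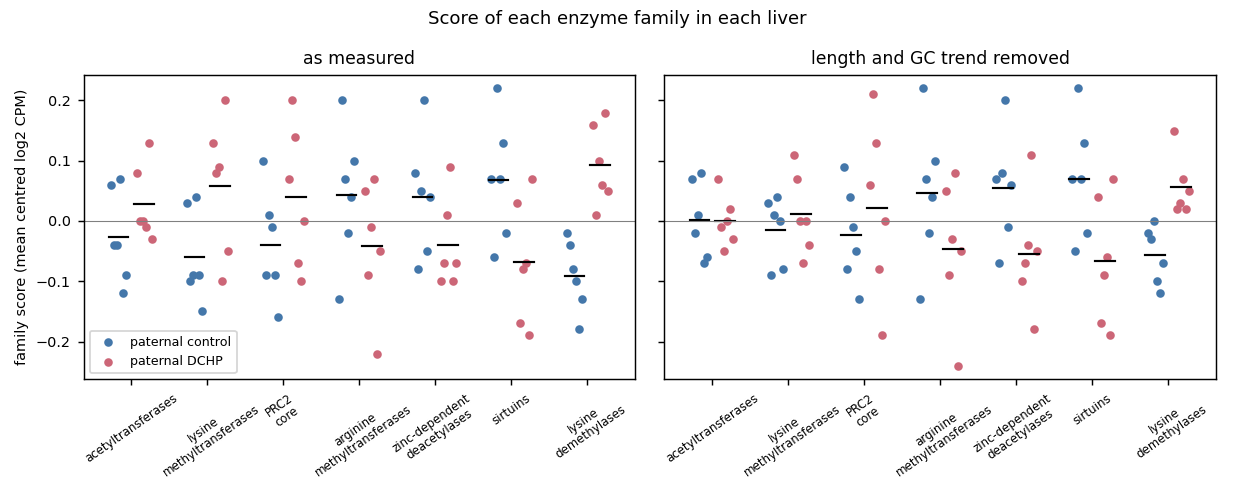
Score of each enzyme family in each liver (mean centred log2 CPM, pseudocount 0.5), with 1 point a liver, 6 paternal control (blue) and 6 paternal DCHP (red), and a bar at the group mean, as measured at left and with the length and GC trend removed at right. The groups separate for lysine demethylases in both panels and overlap for the other 6 families.

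Of the other zinc-dependent deacetylases, Hdac3 was at 29.1 ± 3.07 CPM in controls and 24.9 ± 3.74 CPM in DCHP livers (SD, n = 6 each), or -0.23 ± 0.11 on the log2 scale (SE, edgeR FDR = 0.265, not called). Its class I relatives Hdac1 (-0.02 ± 0.08), Hdac2 (-0.13 ± 0.08) and Hdac8 (-0.23 ± 0.17) were not called either. The 3 positive genes were Hdac4, Hdac5 and Hdac7, which encode class IIa proteins known for shuttling between nucleus and cytoplasm and for little catalytic activity of their own. Their log2 fold changes were 0.20 ± 0.11, 0.22 ± 0.10 and 0.15 ± 0.15, with an edgeR FDR of 0.252 for Hdac5, the lowest of them. Hdac6, the tubulin deacetylase gene, and Hdac10, a polyamine deacetylase gene, were at -0.13 ± 0.10 and -0.07 ± 0.12.

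Among sirtuins, Sirt7, of the nucleolus, was at 27.6 ± 3.98 CPM in controls and 22.5 ± 6.39 CPM in DCHP livers (SD, n = 6 each), a log2 fold change of -0.30 ± 0.17 (SE, edgeR FDR = 0.367). Sirt6, a chromatin deacylase gene, was expressed at a low level, 2.18 ± 0.366 and 1.78 ± 0.309 CPM (SD, n = 6 each), with -0.30 ± 0.18 (edgeR FDR = 0.394). Sirt1, the most studied of the nuclear sirtuin genes, was at 0.09 ± 0.12 (0.726), and Sirt2, of the cytoplasm, at -0.03 ± 0.06 (0.823). The mitochondrial genes Sirt4 (0.13 ± 0.17) and Sirt5 (-0.09 ± 0.17) were not called, so Sirt3 was the single call among the 7.

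Among all tested genes the change rose from one length class to the next, and among the enzyme genes it was higher in the classes from 6 kb on than in the shorter ones. The 24 genes with 10 kb of exon or more had medians of 0.26 (10 to 15 kb, 12 of 13 positive) and 0.20 (15 kb and over, 10 of 11 positive). All tested genes of these lengths had medians of 0.12 and 0.20, with 73.3% and 85% positive. The 13 genes of 2 to 4 kb had a median of -0.07 with 2 positive. All tested genes of that length had a median of -0.05, with 40.6% positive. The 22 genes of 4 to 6 kb had a median of -0.08 with 9 positive, below the 0.02 of all tested genes of that length, 53.3% of which were positive. Length followed the families, with medians of 10813 bases for lysine methyltransferases, 8225 for demethylases, 5148 for sirtuins, 4839 for zinc-dependent deacetylases and 4197 for arginine methyltransferases. With the trend removed, Setd7, Kdm4a, Hdac11 and Sirt3 had the largest changes of the 74 genes.

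**Figure D5:**
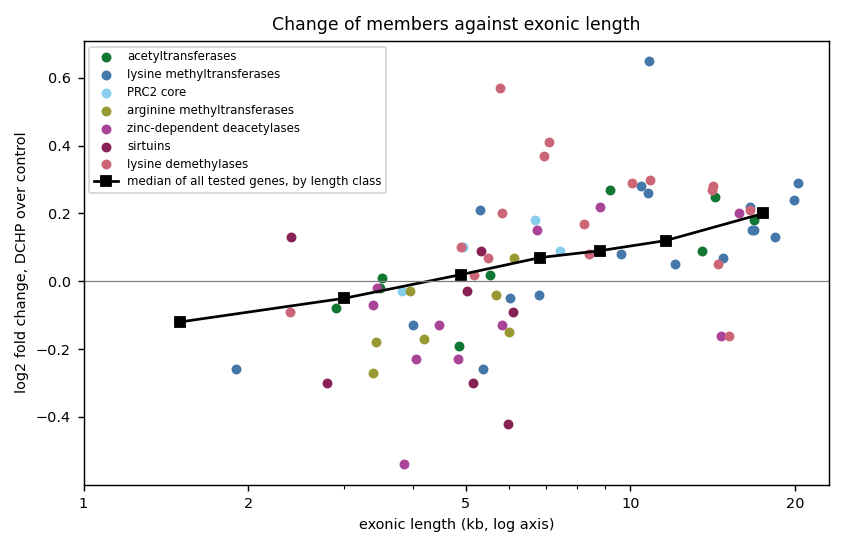
Log2 fold change (paternal DCHP over control) of the 74 tested genes against exonic length in kb (log axis), coloured by family, with black squares for the median of all tested genes in 7 length classes, drawn at the median length of each class. The squares climb from -0.12 to 0.20 with length, and Setd7 and Kdm4a stand above the line and Hdac11 and Sirt3 below it.

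Genes that act beside the enzymes were counted from 4 further lists, for which the share of all tested genes called at an FDR under 0.1 is again 3.84%, 2.29% higher and 1.56% lower. Of 31 tested histone enzymes with other names, 2 were called higher. These were Dot1l, the methyltransferase gene for lysine 79 of histone H3, with a log2 fold change of 0.41 ± 0.11 (SE, edgeR FDR = 0.0917), and Clock, the circadian regulator gene whose product has acetyltransferase activity, with 0.51 ± 0.13 (0.077). Of 75 tested partner subunits of the enzyme complexes, 1 was called, the PRC2 accessory gene Phf1, lower by -0.42 ± 0.11 (edgeR FDR = 0.0786). Of 31 tested readers, which bind the marks, 0 were called by edgeR, DESeq2 or limma-voom, and 4 had an unadjusted p under 0.05. Of 25 tested genes that make or use the substrates of these enzymes, 19 were negative. Nnmt, which uses up the methyl donor S-adenosylmethionine, rose from 60.5 ± 25.3 to 136 ± 68.4 CPM (SD, n = 6 each, edgeR FDR = 0.0917), at a log2 fold change of 1.17 ± 0.33. With the length and GC trend removed, Dot1l was at 0.33 and was not called (edgeR FDR 0.138). Clock was then at 0.39 (0.0911), Phf1 at -0.38 (0.0911) and Nnmt at 1.25 (0.0874), all still called. None of the calls of Dot1l, Clock, Phf1 and Nnmt held without any 1 of control 1, control 3, control 4, control 5 or control 6, with edgeR FDR values up to 0.184 for Dot1l, 0.146 for Clock, 0.167 for Phf1 and 0.18 for Nnmt, nor did most without DCHP 4 or DCHP 5, where Dot1l (DCHP 4) and Phf1 (DCHP 5) were still called. Dot1l was also lost without control 2 (0.128), DCHP 1 (0.123) or DCHP 3 (0.13), Clock without DCHP 1 (0.101), Phf1 without DCHP 2 (0.109), and Nnmt without DCHP 1 (0.101) or DCHP 2 (0.139). DESeq2 called 6 of the other histone enzymes and 4 partner subunits. By limma-voom 1 was called in each of these lists, Clock and Phf1, and neither Dot1l nor Nnmt was called. DESeq2 also called more genes over the whole table, 326 at the study's thresholds against 159 by edgeR. Its share of all tested genes at an FDR under 0.1 alone is not given here. The DESeq2 counts therefore cannot be set beside the 3.84%, which is edgeR's. The median log2 fold change was 0.01 for the other histone enzymes, 0.04 for the readers and -0.08 for the substrate genes.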

How the data were processed

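RNA from 12 livers was sequenced by the authors, who deposited estimated counts for each gene symbol in 1 table, 43.6% of them not whole, with mm10 as the build per the labels. Not given in the sources used here are the aligner, counter, annotation, strand setting and handling of reads that match several genes. The members and lists were chosen with earlier results of these data known. Groups and replicate numbers came from sample titles. Estimated counts were rounded, 12459 genes passed filterByExpr in edgeR (version 4.0.16, R 4.3.3, minimum count 10), and TMM factors and the quasi-likelihood test were applied to all 12 libraries without covariates, with Benjamini-Hochberg adjustment. Standard errors follow from the log2 fold change and its F statistic, whose root is their ratio. The floor of 3 counts covers counting error only.

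Positions and exonic lengths came from GENCODE on GRCm38, matched by symbol (99.85% of tested genes), and promoter windows from RefSeq on GRCm38.p6. Length and GC trends were natural splines with 5 and 3 degrees of freedom. Genes named were those with an FDR under 0.1, those whose groups do not overlap, the 5 writers and 5 erasers with the smallest p in each direction, the 3 highest of each per kilobase and those removed by the filter. Others that are named were chosen after their values were seen. Alternatives were upper-quartile or RLE factors, TMM factors computed without the top 20 genes by level, tests with no filter or a filter of 1 CPM in 6 libraries, DESeq2 (version 1.42.0), limma-voom (version 3.58.1), 1 surrogate variable (sva 3.50.0), a replicate block, the trend removed, other thresholds and libraries left out. Scores with the trend removed and family counts without DCHP 5 or control 3 were added after the data were seen. The fit was tested on simulated data. The 30 pairs of libraries within groups differed beyond counting noise (chi-square per degree of freedom at least 17.4), so none was a duplicate. A result for 1 gene of the substrate list is not reported here.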

Additional observations from a re-analysis of the deposited data

Results flagged for a closer look

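In a group of 6, a liver was singled out where its gap to the nearest of the other 5 exceeded Dixon's critical share of the range. Of 60 groups examined this way 5 held such a liver, and chance gives about 1 in 20. DCHP 5 had 50 CPM of Kat6a, with the other DCHP livers between 31.1 and 34.8 CPM. The same liver had 55.2 CPM of Setd2, where the others had 42.4 to 47.1 CPM, and 6.52 CPM of Prmt1, where the others had 9.63 to 11 CPM. Control 6 had 18.2 CPM of Kdm6b, below the 26.4 to 29.2 CPM of the other controls. DCHP 2 had an eraser score of -0.05, below the 0.02 to 0.05 of the other DCHP livers.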

How the results depend on the processing

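For the 20 tested genes named by the rule, no log2 fold change took the other sign under an alternative, and of their 480 values under alternatives 443 kept their side of the threshold, 35 lost it and 2 gained it (Kdm5a with DESeq2 and Kmt2c without DCHP 6, at an FDR of 0.0926). All 35 losses fell on the 5 called genes, which had 24 alternatives each. Sirt3 was lost in 14, Kdm5c in 9, Setd7 in 6, Kdm4a in 5 and Hdac11 in 1. The other named genes had no call to lose. Kdm3b, outside that rule, was called without control 2 (FDR 0.0658). The median of the writers did change sign with the trend removed. The 5 genes called at an FDR under 0.1 became 2 with the replicate block (Hdac11 and Setd7), 1 with the replicate block and the length and GC trend removed (Hdac11), 3 without DCHP 1 and DCHP 4 and 1 at an FDR under 0.05 (Hdac11), and 0 to 6 with each library left out. With DESeq2 they were 6, with limma-voom 5 and with 1 surrogate variable 4. The 1 gene at the study's thresholds became 0 with the trend removed, 0 with the replicate block and the trend removed, 0 at an FDR under 0.05, 2 without DCHP 1 and DCHP 4, 5 at a fold change above 1.2, and 0 to 2 with each library left out. The 159 genes called over the whole table became 326 with DESeq2, 59 with the replicate block, 74 with 1 surrogate variable, 50 with the replicate block and the trend removed, 36 at an FDR under 0.05, 457 at a fold change above 1.2, and 7 to 233 with each library left out, lowest without control 3. The cause was not tested. The median log2 fold change of writers was -0.01 with the trend removed and -0.02 with the replicate block besides, and that of erasers was 0.01 under both, and with each library left out they lay between 0.05 and 0.11 and between 0.03 and 0.08. Deviations of same-numbered livers from their group means had correlations between -0.12 and 0.17 over the 6 pairs. Livers of different number were not correlated for reference, so weak or partial pairing by number cannot be judged from these values. Depth limits Hdac9, Prmt2, Setd4, Kdm4d and Prmt8.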
